A study of Mus musculus with 2 samples.

Results

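The 82 genes described here are the interleukins, their receptors and the proteins named for them on a mouse expression array. They were found by name: every probe whose gene symbol in the array files starts with Il and a digit was taken, which gave 148 probes, each printed as 1 spot. The array reads 36921 gene names from 56351 probes. The rule itself uses names and no measured value.

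Interleukins are secreted messengers through which immune cells instruct each other and their surroundings. Most act through receptors of paired chains, in which one chain binds a given interleukin and the other is shared between several, and many of these chains signal through JAK kinases and STAT factors, whereas the IL-1 and IL-17 receptor families signal through adaptor proteins such as MyD88 and Act1. Resident macrophages respond to IL-4, IL-10 and IL-13 through such receptors, and activated macrophages are a source of IL-1, IL-6, IL-10, IL-12 and IL-27.

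RNA came from peritoneal macrophages, which live in the fluid of the abdominal cavity. The bl6 mice were either wild type (WT) or MeXis null, without the noncoding RNA gene MeXis, a neighbour of the cholesterol transporter gene Abca1. The labels give growth in DMEM with serum for both genotypes and name no stimulus, and they give neither the age of the mice nor how the null allele was made. Each genotype was 1 one-colour Agilent array hybridised with a pool of 3 samples. With 1 array per genotype there was no replicate check, no test and no p-value, and every value below compares these 2 arrays.

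Levels are processed signals in arbitrary units. Differences are on the log2 scale, taken as MeXis null minus WT after each array was scaled to its 75th percentile. A log2 difference of 1 is 2-fold. Well above background is the scanner software's own mark for a spot brighter than its surroundings, and it was given to 48.0% of non-control spots on WT and 44.3% on MeXis null. A difference was set beside 2 measures of error. The first is the 95% range of the scanner's error, called the scanner limit, and the second is the spread among spots of one probe, whose difference had a median SD of 0.47 over 284 probes. From that SD, a gene read from 1 spot needs a difference of 0.91, or 1.89-fold, to leave the spread. The single MeXis probe was well above background on neither array (12.3 and 8.44), so it gave no check of the labels.

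Of the 82 genes, 30 were well above background on both arrays, and 6 of these lay at least 2-fold apart. Il34, the second ligand of the CSF-1 receptor, was 4.15-fold higher in MeXis null, the widest gap among the members. Il10rb, the shared chain of the IL-10 receptor, was 2.24-fold higher and Il17rc, a chain of the IL-17A and IL-17F receptor, 2.29-fold higher. Il10ra, the chain that binds IL-10, was 2.69-fold lower, Il4i1, a secreted amino acid oxidase named for its induction by IL-4, was 2.58-fold lower, and Il1a, an IL-1 receptor agonist, was 2.23-fold lower. The 3 genes higher were 10.0% of the 30, beside 7.40% of all 15501 genes measured on both arrays. The 3 genes lower were also 10.0%, beside 4.78% of all genes. The median difference of the 30 genes was -0.06, with 15 above 0 and 15 below, and that of all genes was 0.04.

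**Figure D1:**
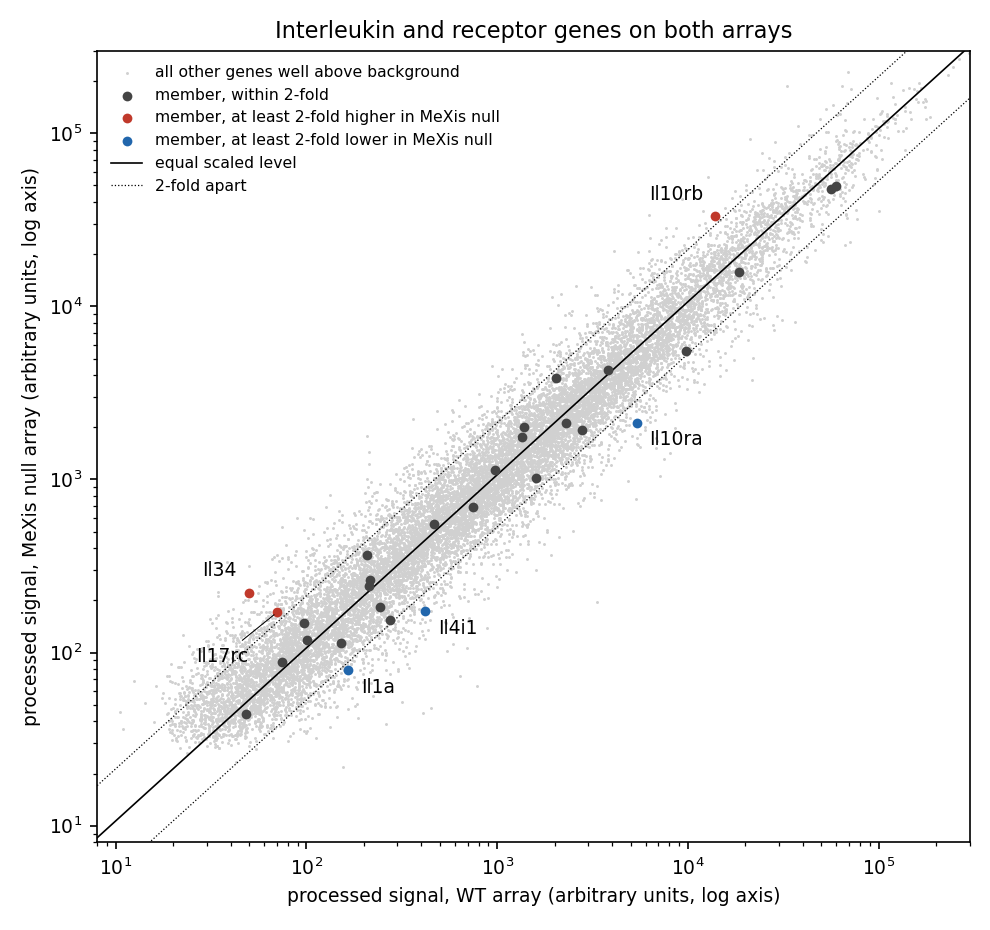
Processed signal of every gene well above background on both arrays, WT on the x axis and MeXis null on the y axis, both on log axes in arbitrary units; the solid line marks equal scaled level and the dotted lines 2-fold. The 30 members are drawn large, and the 6 labelled ones lie outside the 2-fold lines.

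All of these 6 differences were larger than the spread among spots of one probe, which 7 of the 30 members (23.3%) and 15.1% of all genes passed. The surrounding spots on the array differed in the same direction, by less. For each spot, a local offset was taken as the median difference of the 100 nearest spots, less the median over the whole array. Around the Il34, Il17rc and Il10rb spots it was above 0, at 0.28, 0.45 and 0.64. Around the Il10ra, Il4i1 and Il1a spots it was below 0, at -0.48, -0.42 and -0.24. When that local offset was subtracted, which is called local surface correction here, Il34 stayed 3.41-fold higher. The other higher genes came to 1.68-fold for Il17rc and 1.44-fold for Il10rb, and the lower genes to 1.94-fold for Il10ra, 1.93-fold for Il4i1 and 1.88-fold for Il1a. The counts at 2-fold were then 1 of 30 members higher, beside 4.57% of all genes, and 0 lower, beside 2.68%. The SD among spots of one probe fell to 0.33 with the correction, so the limit of 0.91 holds only for differences before it.

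The sites that these 6 genes were read from are shown by the first 30 bases of each probe, 5′ to 3′ on the transcript's strand, as the array files give them, so that the values can be tied to a place in the gene. Coordinates are those of the whole 60-base probe on mm9. Both Il34 probes are on chromosome 8, minus strand, at chr8:113265835-113265894 (brighter) and chr8:113266547-113266606 (dimmer). The Il10ra probes are on chromosome 9, minus strand, at chr9:45061922-45061981 (brighter) and chr9:45062649-45062708 (dimmer). The others are Il10rb at chr16:91425892-91425951 and Il17rc at chr6:113433065-113433124, both plus strand, Il4i1 at chr7:52096115-52096174, plus strand, and Il1a at chr2:129125994-129126053, minus strand. Which of these sites are coding or untranslated was not analysed here.
Il34 brighter probe: aagaacgacggggtgcctcctaggatccca
Il34 dimmer probe: tgcggcccaaagccttgctggacaactgct
Il10rb: ccatgcgggacagacatgaacattttggat
Il17rc: aggctgctgcgaggaatgggacctgggacc
Il10ra brighter probe: tcaaatggaaccacaagtgttgtgtgtttt
Il10ra dimmer probe: aaataatgactaggtcattcagaagtccct
Il4i1: ctcttcagggcagacagaccacctacacta
Il1a: aatgccagttgagtaggataaaggtataag

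Receptors were detected more often than ligands. Of 40 receptor and receptor-like genes, 21 were well above background on both arrays and 2 on WT only. Of 40 ligands, antagonists and binding proteins, 8 were so on both arrays and 32 on neither. Over all members the share on both arrays was 36.6%, against 42.0% of all gene names. The median difference was 0.22 over the 8 ligands and binding proteins and -0.20 over the 21 receptors, and after local surface correction it was -0.05 and 0.03.

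The ligands below background included most of the classical macrophage and T cell products. Il1b, the secreted IL-1 agonist of activated macrophages, has 3 probes, and none passed the mark on either array; the brightest read 6.83 for WT and 14.7 for MeXis null. None of the 5 ligands of the IL-10 family (Il10, Il19, Il20, Il22 and Il24) or the 6 of the IL-17 family (Il17a, Il17b, Il17c, Il17d, Il17f and Il25) was well above background. The same held for Il6, Il11, Il12a, Il12b, Il23a and Il31, for the lymphocyte cytokines Il2, Il4, Il7, Il9, Il13 and Il21, for Il3 and Il5, and for Il33, Il1f5, Il1f6, Il1f8, Il1f9 and Il1f10 of the IL-1 family. Receptors on neither array were Il1r2, Il1rl1 (the IL-33 receptor), Il18r1, Il18rap, Il1rapl1, Il1rapl2, Il2ra, Il2rb, Il9r, Il13ra2, Il12rb1, Il23r, Il31ra, Il20ra, Il22ra1, Il22ra2 and Il17rb. The antisense transcript Il1bos was the remaining one. Their 88 probes had median signals of 4.82 (WT) and 8.14 (MeXis null), and the highest were 24.6 and 22.7. A transcript below this limit is not detectable here, and its absence is not shown.

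**Figure D2:**
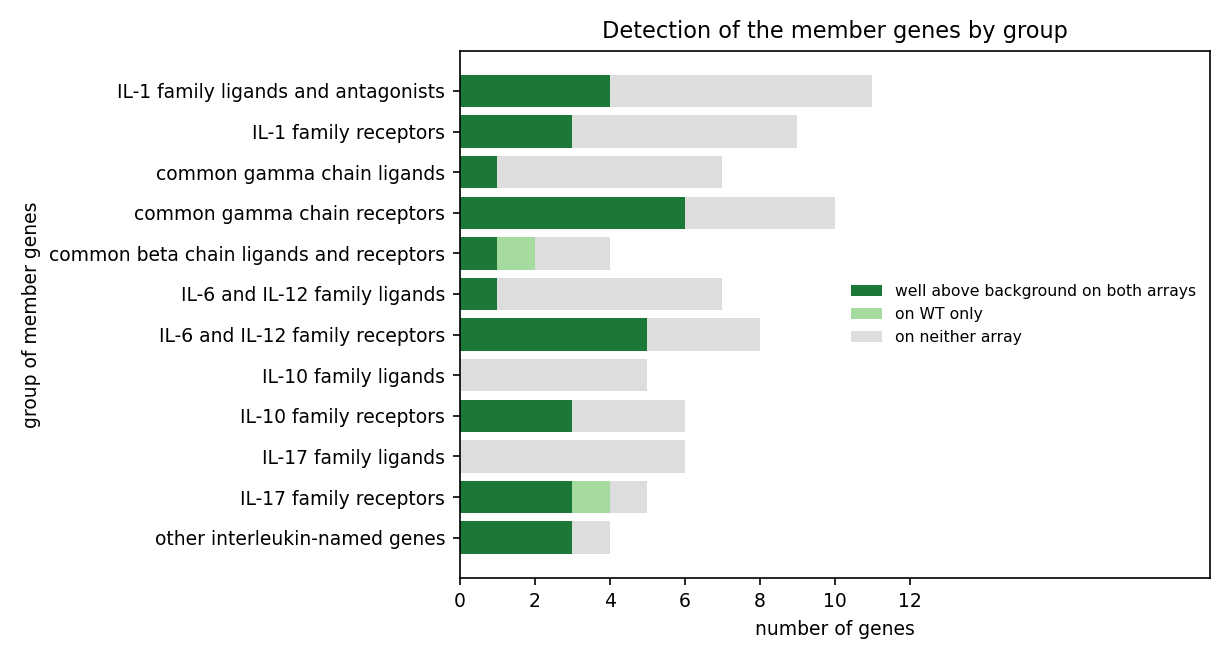
Number of member genes (x axis) in each group of ligands or receptors (y axis) that were well above background on both arrays, on WT only or on neither array. The receptor groups of the common gamma chain, with 6 of 10 genes, and of the IL-6 and IL-12 families, with 5 of 8, have the longest dark bars, and the ligand groups of IL-10 and IL-17 have none.

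IL-34 binds the CSF-1 receptor, as CSF-1 does, and supports macrophage survival. The brighter Il34 probe read 50.1 in WT and 221 in MeXis null, a difference of 2.05 against a scanner limit of 0.52. The dimmer probe, at the other printed site, read 21.7 and 50.5, a difference of 1.13. Both probes were thus higher on the MeXis null array, and after local surface correction they stood at 1.77 and 0.91. Of all 15501 genes, 48 had a difference at least as high as the brighter probe's, Il34 included. Csf1r, the receptor itself and a marker of macrophages, read 95701 in WT and 55382 in MeXis null. That difference of -0.88 lay inside the spread among spots before correction. After local surface correction it was -0.75, with a narrower spread (SD 0.33).

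Several markers of fibroblasts and mesothelium were higher on the same array as Il34. Of all 15501 genes, 7.40% were at least 2-fold higher and 4.78% lower. Of 12 fibroblast markers, 9 were well above background on both arrays and 5 of them passed 2-fold upward and 0 downward; the median was 1.07. Their summed level, in multiples of the array's 75th percentile, was 3.72 for WT and 6.18 for MeXis null. Of 8 mesothelial markers, all were well above background, 4 passed 2-fold upward and 0 downward, and the median was 0.97. Their summed levels were 0.474 and 1.06. Wt1, a transcription factor of mesothelium, was 3.03-fold higher, and Fbn1, the fibrillin gene of connective tissue, 3.57-fold higher. The change was not uniform: Lum and Fap, further fibroblast markers, passed the mark on the WT array alone and were at least 3.45-fold and 2.10-fold lower in MeXis null, Fap inside its scanner limit. Of 8 endothelial markers, 3 were measured on both arrays, 1 passing 2-fold upward and 0 downward, and the median was 0.31. Pecam1 passed on the WT array alone and was at least 2.28-fold lower. Egfl7 passed on the MeXis null array alone and was at least 2.28-fold higher. Cdh5, Tek and Tie1 passed on neither. After local surface correction 4 fibroblast and 3 mesothelial markers were at least 2-fold higher, beside 4.57% of all genes. The part of these cells in the Il34 value, or in that of Il17rc, was not tested. In such pooled RNA, more cells of a type and more RNA per cell cannot be told apart.

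The IL-10 receptor gave opposite differences for its chains. Il10ra is the chain that binds IL-10, and Il10rb is shared with the receptors of IL-22 and the interferon lambdas. Il10ra read 5397 in WT and 2134 in MeXis null at its brighter probe, a difference of -1.43, and 975 and 613 at its dimmer probe, a difference of -0.76. Il10rb, read from 1 probe, gave 13924 and 33174, a difference of 1.16. In the alternatives that changed their values, 8 for Il10ra and 7 for Il10rb, each chain kept its direction, from -1.97 to -0.95 for Il10ra and down to 0.53 for Il10rb. The 2-fold calls did not hold in all of them. Il20rb, which pairs with other chains to bind IL-19, IL-20 and IL-24, read 152 and 113, a difference of -0.52 inside the spread. The other Il20rb probe passed the mark on neither array.

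In the IL-1 family, the agonist Il1a and the IL-18 decoy Il18bp were lower in MeXis null, and the other measured genes lay inside the spread. Il1a read 166 in WT and 79.2 in MeXis null, a difference of -1.15. Il1rn, the antagonist that occupies the IL-1 receptor without signalling, read 1374 and 2006 at its brighter probe, a difference of 0.45, and its other probe gave 0.57. Il18bp, the soluble protein that captures IL-18, read 275 and 155, a difference of -0.92 at its brighter probe and -0.59 at the other, and at the brighter probe it lay just beyond the limit of 0.91. It stood at -0.98 after local surface correction and at -0.63 after normexp, a model of background in the raw signal. Il18 itself read 977 and 1135, a difference of 0.13. The receptor chains differed by at most 0.19. Il1r1, the signalling receptor, differed by 0.10, its accessory chain Il1rap by 0.15 and Il1rl2, the receptor of IL-36, by 0.19. Il1rap and Il1rl2 passed the mark at their brightest probe alone. The other Il1rl2 probe read 6.13 in WT and 10.4 in MeXis null.

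The common gamma chain group, whose receptors are carried by lymphocytes as well as macrophages, had 6 of 10 receptor genes and 1 of 7 ligands measured. Il2rg, the common chain itself, read 2028 in WT and 3882 in MeXis null. Its difference was 0.85, inside the spread before correction. After local surface correction it was 0.81, with a narrower spread (SD 0.33). Il7r, the IL-7 receptor, read 60056 and 49779 at its brighter probe. That difference was -0.36, while its dimmer probe gave 0.19. Crlf2, which joins Il7r to form the receptor of TSLP, read 56532 and 46779, also a difference of -0.36. Il4ra, the chain through which IL-4 and IL-13 act, read 1605 and 1018, a difference of -0.75, and its partner Il13ra1 read 2301 and 2127, a difference of -0.20. Il15 (1341 and 1761, 0.30) and its presenting chain Il15ra (3817 and 4296, 0.08) differed little at their brightest probes. Local surface correction turned the sign of 9 of the 30 members, all of them within 2-fold, among them Il7r (to 0.11), Il13ra1 (to 0.31), Il15 (to -0.09) and Il15ra (to -0.23).

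The chains of the IL-6 receptor differed by less than the spread, Il6ra only just. Il6ra, the chain that binds IL-6, read 9739 in WT and 5502 in MeXis null, a difference of -0.91, while its dimmer probe gave 0.54 and the median of its probes -0.19. The signalling chain Il6st read 2791 and 1929, a difference of -0.62. At the brighter probes the chains moved to -0.41 and -0.06 after local surface correction. After normexp they moved the other way, to -1.23 and -0.97, so that Il6ra was then at least 2-fold lower. Of the related receptors, Il11ra1 read 56464 and 47474 (-0.34), Il27ra 747 and 690 (-0.20), and Il12rb2 48.3 and 44.0 (-0.23). The Il11ra1 signal could include its near-identical copies. Il27, the only measured ligand of the IL-6 and IL-12 families, went the other way, with 208 and 364 and a difference of 0.72.

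In the IL-17 receptor family, Il17rc read 70.4 in WT and 171 in MeXis null, a difference of 1.19, at the only one of its 3 probes that was well above background. Its obligate partner Il17ra read 97.1 and 148, a difference of 0.51. Il17rd, an inhibitory member of the family, read 243 and 182, a difference of -0.51 that became 0.29 after local surface correction. No other Il17rd probe passed the mark on both arrays. One read 3.77 and 8.41, and another, which passed on WT alone, 25.5 and 25.5. Il17re, a receptor of IL-17C, passed the mark on the WT array alone, at 19.1, while MeXis null read 24.0, so no fold is given.

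Of the common beta chain group, Il3ra, the chain that binds IL-3, read 18435 and 15878 at its brighter probe, a difference of -0.31. Il5ra, the IL-5 receptor chain of eosinophils and B-1 cells, passed the mark on the WT array alone, with 24.3 and 21.2. No fold is given, because the WT value lay below the lowest marked signal of the MeXis null array, 27.3. Of the 7 eosinophil markers, 1 was measured on both arrays, Siglecf, whose difference of -0.75 lay inside the spread before correction. It was -0.82 after local surface correction. Ear1 was at least 14.0-fold and Ear2 at least 45.8-fold lower in MeXis null, though these ribonuclease genes are close copies whose signals may mix. The summed level of the list went from 2.06 to 0.739, with Epx, Prg2 and Ccr3 on neither array. Their part in the Il5ra value was not tested. Il16, a chemoattractant for CD4+ cells, read 100 and 118 at its brightest probe, a difference of 0.15. Another Il16 probe passed the mark on the MeXis null array alone, with 20.1 and 58.4, a difference of 1.45. The median over the Il16 probes was 0.68.

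Il4i1, which is no cytokine but an enzyme that degrades phenylalanine and other amino acids, read 421 in WT and 174 in MeXis null, a difference of -1.37. It has 1 probe on the array. It was one of the genes whose value hung most on background correction, with -0.55 after normexp.

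**Figure D3:**
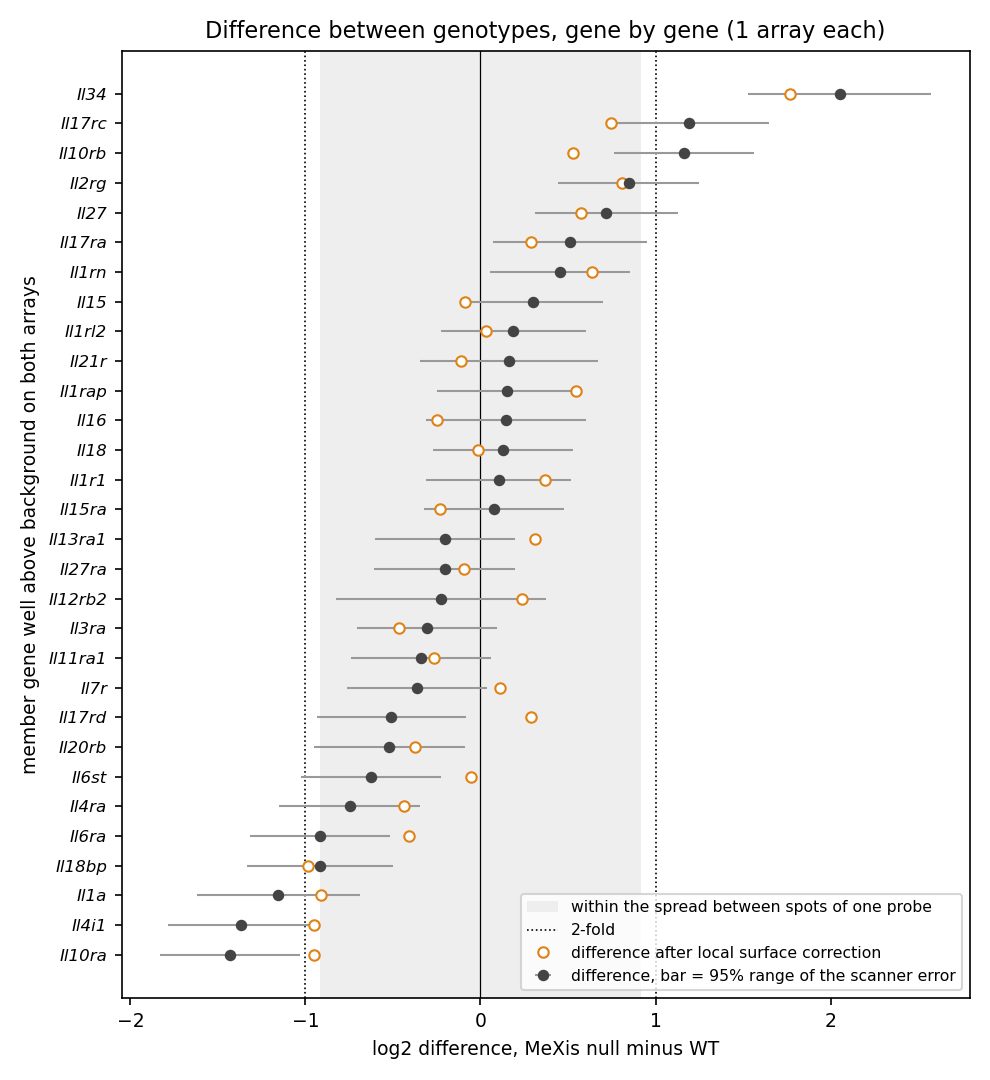
Log2 difference of MeXis null minus WT (x axis) for each of the 30 members measured on both arrays (y axis). Bars give the 95% range of the scanner error and open circles the value after local surface correction. Grey marks the spread among spots of one probe before correction. Il34 lies beyond the dotted 2-fold line in both forms, while the 5 other genes beyond it move inside it after correction.

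Several members are read at more than 1 site, which gives a check within the arrays. Of 12 genes with at least 2 probes well above background on both arrays, 7 had probes of opposite sign and 4 had probes at least 1 apart on the log2 scale. Over all 5202 such genes the shares were 54.7% and 31.4%, and the median range between probes was 0.75 for the members and 0.69 for all genes. Il34, Il10ra, Il18bp, Il1rn and Il6st had probes of one sign.

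Il21r, the IL-21 receptor, had the widest range. The probe that represents it read 74.3 in WT and 88.5 in MeXis null, a difference of 0.16. Its other probe read 93.5 and 32.8, a difference of -1.60, so the gene would count as lower had that probe been chosen. Il6ra was next, with -0.91 at the brighter probe and 0.54 at the dimmer one, which read 137 and 211. After local surface correction the range of Il6ra shrank from 1.45 to 0.34, and that of Il21r from 1.76 to 1.14. Il4ra and Il15ra had ranges of 1.04 and 1.03. The sites of the pairs that disagreed most are shown so that they can be told apart. The Il21r probes lie at chr7:132774961-132775020 (first) and chr7:132776644-132776703 (second), plus strand, and the Il6ra probes at chr3:89674054-89674113 (brighter) and chr3:89680743-89680802 (dimmer), minus strand, mm9.
Il21r first probe: gtgctgttgctgctgatcttgtgtgacaag
Il21r second probe: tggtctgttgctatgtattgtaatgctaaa
Il6ra brighter probe: aggaccaagtgcagtaacggtagcccaaac
Il6ra dimmer probe: cctgcccacattcctggtagctggaggaag

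**Figure D4:**
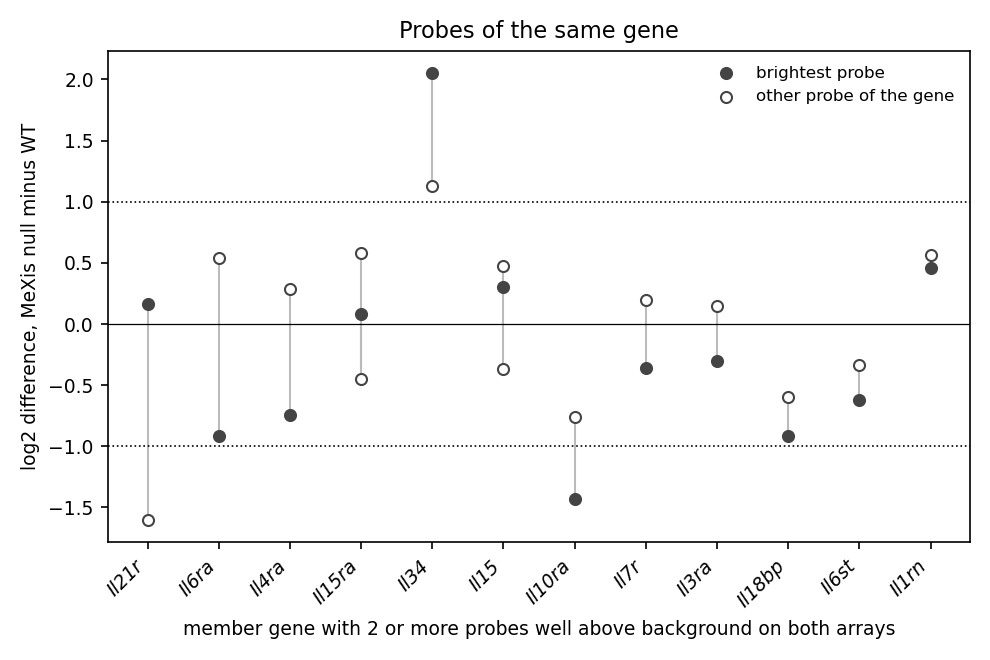
Log2 difference of MeXis null minus WT (y axis) at each probe well above background on both arrays, for the 12 members with more than 1 such probe (x axis, ordered by range); filled points are the probes the genes are read from. The Il34 probes both lie above 1, and the Il21r probes lie on opposite sides of 0, at 0.16 and -1.60.

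Genes that act with these receptors, or respond to them, were described by 8 lists. Their counts stand beside 7.40% of all 15501 genes at least 2-fold higher and 4.78% lower. After local surface correction these shares were 4.57% and 2.68%. Partners of the receptors without an Il symbol had 12 of 17 genes measured on both arrays, 2 passing 2-fold upward and 0 downward, and a median of -0.14. The higher ones were Lifr and Osmr, the receptor chains of LIF and oncostatin M that pair with Il6st, at 2.50-fold and 2.14-fold; after local surface correction Osmr was at 0.92, inside 2-fold, and Lifr at 1.11. Clcf1, of the same list, passed the mark on the MeXis null array alone and was at least 2.94-fold higher. All 16 adaptors and kinases of the IL-1 and Toll receptors were measured, 2 higher and 0 lower, with a median of -0.10. Those were Traf3ip2, which encodes Act1, the adaptor of the IL-17 receptor, at 2.33-fold, and Tab3, a subunit of the TAK1 kinase complex, at 2.11-fold. In the genes that process IL-1 and IL-18, 11 of 12 were measured, 0 passed 2-fold either way, and the median was 0.33; Nlrp3 was on neither array.

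JAK kinases and STAT factors had 10 of 11 genes measured, 1 higher and 0 lower, with a median of -0.23 that became 0.05 after local surface correction. The higher one was Stat6, the factor through which Il4ra signals, at 2.21-fold and still 1.07 on the log2 scale after local surface correction. Of the SOCS proteins and other JAK inhibitors, 15 of 17 were measured, 0 higher and 1 lower, Socs6, at 2.13-fold, with a median of -0.06. Socs6 came to -0.84 after local surface correction, which left 0 lower. The IL-6 response genes had 1 of 10 higher, the transcription factor Cebpb at 3.15-fold, 0 lower and a median of -0.02. After local surface correction Timp1 moved from 0.93 to 1.13, which made 2 higher.

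IL-4 and IL-13 response genes had the lowest median of the 8 lists, -0.51. Of 12 measured, 0 were higher and 3 lower, beside 7.40% and 4.78% of all genes. Arg1, arginase 1, read 409 in WT and 44.6 in MeXis null and was 9.78-fold lower. Tgm2, a transglutaminase, was 2.84-fold lower and Irf4, a transcription factor, 2.50-fold lower. Irf4 came to -0.85 after local surface correction, which left 2 lower. The other genes of that list measured on both arrays lay within 2-fold. Mrc1 (-0.80), Clec10a (-0.67), Egr2 (-0.65), Myc (-0.38) and Retnla (-0.07) were below 0. Chil3 (0.28), Ppargc1b (0.08), Ccl24 (0.06) and Mgl2 (0.01) were above 0. Of the IL-10 response genes, 11 of 12 were measured, 0 higher and 1 lower, the NF-kB inhibitor Tnfaip3 at 3.33-fold, with a median of -0.26. After local surface correction the medians of the 2 lists were -0.28 and -0.45.

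**Figure D5:**
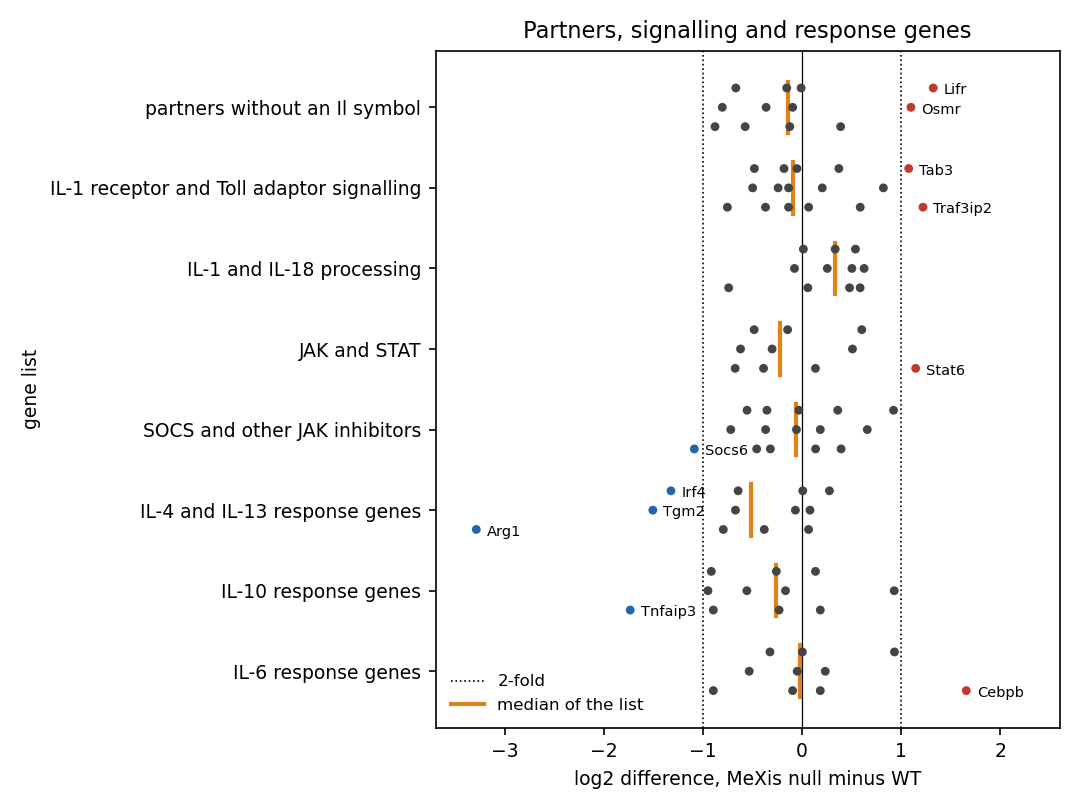
Log2 difference of MeXis null minus WT (x axis) of the genes measured on both arrays in each of the 8 lists (y axis); each point is a gene, coloured and named where it is at least 2-fold apart, and the orange line is the list's median. Arg1 lies furthest left, and no list has genes beyond the 2-fold lines on both sides.

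Of the 13 macrophage markers, 12 were well above background on both arrays, with Timd4 on neither, 1 at least 2-fold higher and 2 lower, and summed levels of 149 (WT) and 206 (MeXis null). Markers of other immune cells gave signal too. The counts in these lists stand beside 7.40% of all genes at least 2-fold higher and 4.78% lower. B cell markers, 7 of 10 measured, had 2 genes at least 2-fold lower and 0 higher, with a median of -0.81. After local surface correction 4 were lower, beside 2.68% of all genes. Pax5 and Ebf1 passed the mark on the WT array alone, at least 1.99-fold and 1.52-fold lower in MeXis null, and Blk on neither. The summed levels of the B cell list were 4.27 and 4.18, to which Cd37, 1.26-fold higher, gave 5079 and 6812 in signal. T and NK cell markers, 6 of 13 on the array, had 1 lower and 0 higher, with Cd3g, Cd8a, Ncr1, Klrb1c and Gzmb on neither array and summed levels of 1.29 and 1.15. Summed levels were 9.77 and 6.05 for neutrophil, 25.3 and 27.3 for dendritic cell, 2.48 and 1.91 for innate lymphoid cell, 2.70 on MeXis null and 2.45 on WT for endothelial, and 0.209 and 0.195 for mast cell markers. Of the 9 mast cell markers, 2 were measured on both arrays and 5 on neither. Tpsb2, at 252 and 325, was 1.21-fold higher and Hdc 1.25-fold lower. Cma1 and Cpa3 passed the mark on the WT array alone, at least 2.37-fold and 1.45-fold lower in MeXis null, Cpa3 inside its scanner limit. The part of these cell types in Il7r, Il2rg, Il21r and the other receptors that lymphocytes carry was not tested.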

How the data were processed

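The deposited scanner files give the intensity of each spot, made with Agilent Feature Extraction 11.5.1.1 with background subtracted and surface trends removed, and probe coordinates on mm9, per the file headers. All 62976 values of the deposited matrix were intensities identical to the processed signals (medians 12.9 and 17.0). The software's deposited flags, other columns of 0 or 1, marked spots well above background and outliers.

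Control and outlier spots were left out, which lost 254 probes but no member. Processed signals were put on the log2 scale and set against the array's 75th percentile, taken over the probes that both arrays marked as well above background. A gene was read from its brightest probe on average, counted at 2-fold, and where 1 array passed, given a bound against the dim array, read as the probe's signal there or, where that was lower, as the lowest marked signal (12.1 on WT, 27.3 on MeXis null). Symbols were updated from RefSeq (GRCm38.p6, names only): accessions named 32994 probes, symbols 10224 and synonyms 520, while 13007 kept their names. Scanner limits are 95% ranges. Both arrays shared a slide and scan.

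Members, roles and lists were chosen with earlier results of these data known. The rule for named genes took every detected member, up to 3 genes per direction of each list at 2-fold, and defining cell type genes. Csf1r, Crlf2, Timp1 and the genes of the IL-4 and IL-13 list within 2-fold were named after their values were seen. Probe sequences were to be shown only where found to be coding, which needs protein sequences not used here, so 30 bases are shown instead; of 269 probe pairs overlapping by position, 204 overlapped in the transcript's direction and 0 in the opposite one.

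Alternatives were normexp (limma 3.58.1 in R 4.3.3, offset 50), quantile and loess (span 0.3) normalization, other percentiles and medians, and a local surface correction. That correction subtracted the median of the 100 nearest marked spots, less the median of all marked spots. Further alternatives were the series matrix, no filter or a signal of at least 100, and the median over the probes of a gene. Outlier spots left in and other fold thresholds were also tried. Python 3.11.15, numpy 2.4.6 and statsmodels 0.14.6 were used, and the steps were tested on simulated data.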

Additional observations from a re-analysis of the deposited data

How the results depend on the processing

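Over the alternatives, 44 values for the members' and all genes' counts and medians stayed close to the main ones and 20 moved. The count of members at least 2-fold higher, 3 in the main setting, was 1 after local surface correction, 1 after normexp, 1 with a signal of at least 100 on both arrays, 17 with no filter on dim probes, 5 at 1.5-fold and 1 at 3-fold. The count lower, also 3, was 0 after local surface correction, 6 with no filter, 7 at 1.5-fold and 0 at 3-fold. Of all genes, 1147 were higher and 741 lower. The higher count became 709 after local surface correction, 727 with the signal minimum, 6306 with no filter, 2898 at 1.5-fold and 236 at 3-fold. The lower count became 416 after local surface correction, 458 with the median of a gene's probes, 1824 with no filter, 2238 at 1.5-fold and 172 at 3-fold. With no filter all 82 members are counted, most of them below background, where MeXis null reads higher. The signal minimum leaves out Il34, Il17rc and Il1a. Counting only the alternatives that keep a gene and change its value, Il34 stayed at least 2-fold higher in 8 of 8, Il10ra lower in 7 of 8, Il4i1 and Il1a each lower in 5 of 7, Il17rc higher in 5 of 8 and Il10rb in 4 of 7. None of these 6 genes changed sign in them. The cause of the changes was not tested. The outlier spots kept, added after seeing the data for the count of members well above background on at least 1 array, left it at 32. No paired analysis was possible because each genotype is 1 array, and for the same reason no replicate could be left out. Dim genes are limited by signal over background: the scanner limit was 0.40 for members of high signal and 0.52 for Il34.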
